A study of Saccharomyces cerevisiae with 4 samples.

Results

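The seripauperins, encoded by the 24 genes PAU1 to PAU24, and the wall mannoproteins encoded by TIR1 to TIR4, DAN1 and DAN4 form a set of 30 related budding yeast genes, chosen here by name from the 6212 rows of the deposited table. The set was picked for description with earlier results of these data known, so its values are given without any test. Of the 30 genes, 26 had a value on at least 1 array and 22 on all 4. PAU22 and DAN1 had a row without values, and PAU8 and PAU9 were not analysed here.

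Expression was measured in Saccharomyces cerevisiae on 4 spotted 2-colour arrays, 2 for a wild-type strain and 2 for a ptc1 mutant strain, which lacks the Ptc1 protein phosphatase. Cells of both strains grew at 28 °C in YPD, a rich medium, and received either rapamycin at 200 ng/ml for 1 h or the mock treatment with the ethanol and Tween-20 vehicle, and each array set treated against mock-treated cells of the same strain. Rapamycin inhibits TORC1, the kinase complex that ties growth to nutrients. The genetic background of the strains, and whether the ptc1 strain is 1 clone, are not stated by the labels. Each RNA sample was dye-swapped according to the labels, and both arrays of a strain were therefore treated as repeat measurements of 1 RNA pair. There were no replicate cultures, the ± of a mean is the SD of its 2 arrays and holds technical spread alone, and no p-value was computed.

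Pau proteins are short, secreted and poor in serine, and most of their genes lie close to chromosome ends. Tir and Dan proteins are related, longer mannoproteins that are anchored in the cell wall. Yeast is known to make both kinds in quantity when oxygen or haem is lacking, and the Tir proteins in the cold as well, while in aerobic cells the repressors Rox1 and Mot3 hold many of these genes down and the activator Upc2 opposes them. Many PAU genes are near-identical copies that an array may not separate. Their values can share signal, and 17 PAU genes that move together are fewer than 17 separate observations.

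Each value was read as a log2 ratio of rapamycin-treated to mock-treated cells, the log base and the direction being assumed here, since the deposited table does not give them. The words rose and fell are used for a gene with values on both arrays of a strain, both of the same sign, and a mean of at least 1 in size, which is 2-fold. Across the 4650 genes measured on all arrays, the arrays correlated with r = 0.958 for wild-type cells and r = 0.869 for ptc1 cells. The median SD of a gene was 0.155 over 4796 genes measured on both wild-type arrays and 0.277 over 5221 on both ptc1 arrays. PTC1 itself (YDL006W) had no value on either ptc1 array, and values of 0.003 and −0.525 in the wild type.

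The first comparison asked what rapamycin does to this family in wild-type cells. Most seripauperin genes were lower after rapamycin: of 19 measured on both wild-type arrays 14 fell and 1 rose, with a median of −1.38, or 2.60-fold lower. Over all genes measured, 15.0% fell and 13.8% rose, with a median of 0.069. None of the 5 measured TIR and DAN genes fell, and their median was −0.325. Because cells were measured in bulk, fewer expressing cells and less RNA per cell cannot be told apart.

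PAU4 (YLR461W) had the lowest mean of the family, with wild-type readings of −1.779 and −1.783 that average −1.78, or 3.44-fold lower. PAU12 (YGR294W) stood at −1.679 and −1.682, a mean of −1.68. PAU23 (YLR037C), earlier named DAN2, had −1.700 and −1.567, a mean of −1.63 ± 0.09. In all of these both arrays lay well past 2-fold, and the means of the 3 genes differed by less than the SD of 0.180 that was the median over PAU genes.

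PAU14 (YIL176C) had −1.908 and −1.327, a mean of −1.62 ± 0.41. PAU24 (YBR301W), earlier named DAN3, had −1.757 and −1.401, a mean of −1.58 ± 0.25. The arrays thus disagreed more for these genes, array 1 being the lower. That was so across the family: array 1 was below array 2 for 14 of the 17 PAU genes measured on all arrays, with a median gap of 0.254, whereas over all genes array 2 was the lower by a median of 0.059. The dyes of these arrays were swapped, and the part of dye in this gap was not tested.

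The other PAU genes that fell had wild-type means between −1.45 and −1.25. They were, from the lowest upward, PAU2 (YEL049W, −1.45 ± 0.21), PAU11 (YGL261C, −1.40 ± 0.05), PAU21 (YOR394W, −1.40 ± 0.34), PAU5 (YFL020C, −1.38 ± 0.27), PAU3 (YCR104W, −1.38 ± 0.11), PAU16 (YKL224C, −1.37 ± 0.18), PAU1 (YJL223C, −1.29 ± 0.22), PAU6 (YNR076W, −1.26 ± 0.04) and PAU18 (YLL064C, −1.25 ± 0.18). Neighbours in this order differed by less than the spread of the arrays. PAU21 is known as a close copy of PAU22, so its value may belong to both. PAU17 (YLL025W, −0.92 ± 0.12), PAU13 (YHL046C, −0.85 ± 0.18) and PAU20 (YOL161C, −0.78 ± 0.30) had negative values on both arrays and did not reach 2-fold, so that among PAU genes PAU18 was just past the limit and PAU17 just short of it.

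A few seripauperin genes went the other way or could not be placed. PAU19 (YMR325W) rose, with 1.203 and 1.153 on the wild-type arrays and a mean of 1.18 ± 0.04. PAU10 (YDR542W) had 0.382 and 0.915, a mean of 0.65 ± 0.38 that did not reach 2-fold. These were the PAU genes with positive means among the 19, and 17 of 19 means lay below 0, against 46.6% of all genes. PAU15 (YIR041W) had a value on wild-type array 2 alone, −1.563, and PAU7 (YAR020C) on array 1 alone, 0.015.

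**Figure D1:**
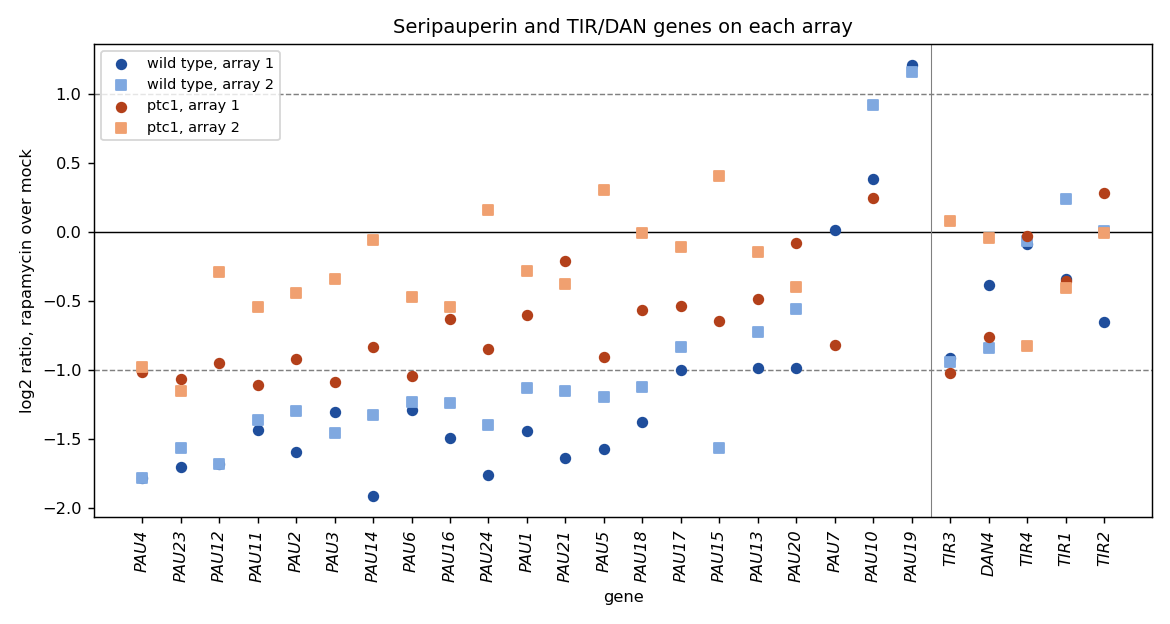
Each point is the log2 ratio, rapamycin over mock, of a gene on 1 array, for the 26 genes with a value, PAU genes left of the vertical line and TIR and DAN genes right of it, each in order of the mean over arrays. Dashed lines mark 2-fold. For 17 PAU genes both wild-type arrays (blue) lie below both ptc1 arrays (orange), PAU10 and PAU19 are above 0, and the TIR and DAN4 genes scatter with no separation of the strains except for TIR1.

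The Tir genes gave small or unsteady ratios. TIR1 (YER011W) had −0.338 and 0.235 on the wild-type arrays, TIR2 (YOR010C) −0.656 and 0.006, and TIR4 (YOR009W) −0.088 and −0.066. The signs of TIR1 and TIR2 thus differed between arrays, and TIR4 was close to 0. TIR3 (YIL011W) had −0.916 and −0.943, a mean of −0.93 ± 0.02, just short of 2-fold, and DAN4 (YJR151C) had −0.383 and −0.839, a mean of −0.61 ± 0.32. All 5 means lay below 0 and none passed the limit. The difference between the PAU and the TIR and DAN genes was not tested.

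PAU genes fell both near chromosome ends and farther inside. By the gene order of the R64 reference assembly, 20 of the 24 PAU genes lie within 20 genes of a chromosome end. Of 15 such genes measured in the wild type 11 fell (73.3%), and of the 4 PAU genes farther inside, PAU2, PAU5, PAU17 and PAU23, 3 fell. Among the 412 other measured genes within 20 genes of an end 54 fell (13.1%) and 82 rose (19.9%), with a median of 0.155.

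The second comparison asked the same of the ptc1 strain. PAU genes were only slightly lower after rapamycin there, with a median of −0.446, or 1.36-fold lower, over 18 genes measured on both arrays. PAU23 was the member that fell, with −1.063 and −1.152, a mean of −1.11 ± 0.06. Over all genes measured 12.4% fell and 10.6% rose, with a median of 0.078. All 18 PAU means lay below 0, against 45.7% of all genes, so the sign was shared although the size was small.

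PAU4 stood next to PAU23, with −1.016 and −0.977, a mean of −0.9965 that narrowly missed 2-fold. It passed, at −1.04, when each array was centred on its median. The lowest mean in ptc1 after these was that of PAU11 at −0.82 ± 0.40, from −1.107 and −0.542. PAU6 (−0.76 ± 0.40), PAU3 (−0.71 ± 0.53), PAU2 (−0.68 ± 0.34), PAU12 (−0.62 ± 0.47) and PAU16 (−0.59 ± 0.06) followed, and the remaining 10 PAU means lay between −0.45 and −0.12. PAU10 had a ptc1 value on array 1 alone (0.245), as did PAU7 (−0.821), and PAU19 had none. At a limit of 1.5-fold 17 of 19 PAU genes fell in the wild type, against 23.7% of all genes, and 8 of 18 in ptc1, against 20.3%. At 3-fold 4 of 19 fell in the wild type, against 9.07% of all genes, and 0 of 18 in ptc1, against 7.07%.

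The gap between the ptc1 arrays mostly had the same direction across this family. The median SD of a gene in ptc1 was 0.365 for PAU genes and 0.277 over all genes. Array 2 was above array 1 for 14 of 17 PAU genes and for 51.4% of all genes. The median gap with its sign, array 2 minus array 1, was 0.475 for PAU genes and 0.019 over all genes. PAU5 had −0.904 and 0.299, PAU24 had −0.851 and 0.157, and PAU15 had −0.644 and 0.405, so that the sign turned between arrays. The number that fell therefore depended on the array: on array 1 alone 5 PAU genes (PAU3, PAU4, PAU6, PAU11 and PAU23) and TIR3 were at least 2-fold lower, against 12.8% of all genes, and on array 2 alone PAU23 was, against 13.8%. Titles and dye entries of the samples disagree on which dye was which for these arrays, and the part of dye in the gap was not tested.

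Among the mannoprotein genes, TIR1 had −0.353 and −0.406 in ptc1, a mean of −0.38 ± 0.04, and TIR2 had 0.283 and −0.012. TIR3 had −1.022 and 0.078, TIR4 −0.030 and −0.826, and DAN4 −0.763 and −0.044. The arrays of TIR3, TIR4 and DAN4 were far apart, and none of the 5 genes passed the limit.

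The strains were then set against each other, to ask whether Ptc1 bears on the response of the family. Every one of the 17 PAU genes measured on all 4 arrays had a higher, that is less negative, mean ratio in ptc1, as 49.5% of all genes had, and both ptc1 arrays lay above both wild-type arrays for all 17. Over all genes 18.2% showed such a separation in this direction. The median difference of the PAU genes was 0.78, from 0.51 for PAU6 to 1.23 for PAU24, whereas the median over all genes was −0.004. Each strain was measured only against its own mock culture, so whether treated or mock cells carry the difference cannot be told apart.

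A strain difference was called when the means differed by at least 1 and the 2 arrays of ptc1 lay on the same side of both wild-type arrays. By this rule 5 of the 17 PAU genes were higher in ptc1, against 0.989% of all genes, and 0 were lower, against 0.925%. PAU24 had a wild-type mean of −1.58 and a ptc1 mean of −0.35, which differ by 1.23 ± 0.76. PAU14 went from −1.62 to −0.45, with −0.832 and −0.061 on the ptc1 arrays and a difference of 1.17 ± 0.68. The ptc1 arrays of both genes were far apart, with SDs of 0.71 and 0.55, as were the wild-type arrays of PAU14.

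PAU21 went from −1.640 and −1.154 in the wild type to −0.208 and −0.376 in ptc1, a difference of 1.10 ± 0.36. PAU5 differed by 1.08 ± 0.89 and PAU12, at −0.950 and −0.291 in ptc1, by 1.06 ± 0.47. Of the 5 genes PAU21 alone kept a difference past 1 without ptc1 array 2, which left 1 PAU gene called, against 0.896% of all genes. Without ptc1 array 1 there were 8 PAU genes, and TIR3, against 1.92% of all genes. Without wild-type array 1 there were 3, namely PAU12, PAU24 and PAU15, against 1.07% of all genes. At a limit of 1.5-fold 12 of the 17 were higher in ptc1, against 4.99% of all genes, and at 3-fold 0 were, against 0.0860%. The number of genes past the limit thus rested on the arrays used. That the 17 PAU genes measured on all 4 arrays stayed higher in ptc1 under each omission was fixed in advance by the separation of their arrays. With arrays matched by the dye in their titles, the median PAU difference was 0.729 between the first arrays and 0.823 between the second. Matched by the dye entries, which disagree with the titles for ptc1, it was 0.965 and 0.495. All 17 genes were above 0 in each of these 4 comparisons, which follows from the same separation and is no further check.

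**Figure D2:**
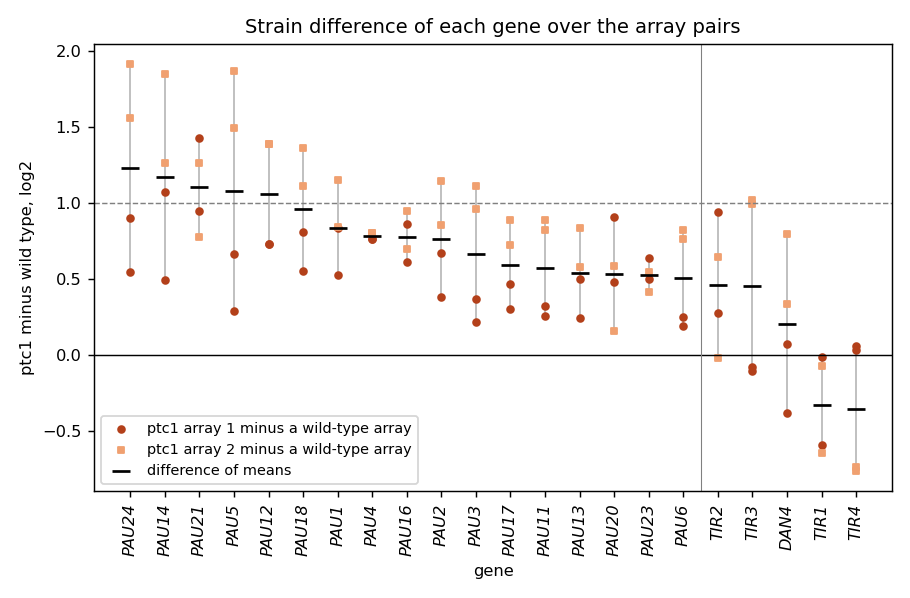
Each column is a gene measured on all 4 arrays, PAU genes left of the vertical line and TIR and DAN4 genes right of it. Points give each ptc1 array minus each wild-type array, 4 values per gene, in log2 units, the black mark is the difference of the strain means, and the dashed line marks a difference of 1. All differences of the 17 PAU genes are above 0, with those of ptc1 array 2 (squares) mostly the larger, and the differences of TIR2, TIR3, TIR4 and DAN4 lie on both sides of 0.

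Some PAU genes with steadier arrays showed the same direction with differences short of 1, where the median over PAU genes was 0.78. PAU4 differed by 0.78 ± 0.03, being 3.44-fold lower after rapamycin in the wild type but 1.995-fold lower in ptc1. PAU23 differed by 0.53 ± 0.11, from 3.10-fold to 2.15-fold lower. PAU16, with wild-type values of −1.494 and −1.241 and ptc1 values of −0.630 and −0.544, differed by 0.78 ± 0.19. These genes were named for their small SDs, so differences of several times the SD follow from that choice. In other PAU genes the SD was nearer the difference, as for PAU3 (0.67 ± 0.54) and PAU6 (0.51 ± 0.41).

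Means over all genes spread less in ptc1, with an SD of 1.05 over 5221 genes against 1.24 over 4796 in the wild type. The PAU genes were therefore set beside others of the same wild-type ratio. Both sets were picked by their wild-type means, so ptc1 values nearer to 0 can partly follow from that choice. The 14 PAU genes that fell had wild-type means from −1.78 to −1.25 with a median of −1.40, and a ptc1 median of −0.604. There were 192 other genes in that range on all 4 arrays, with a wild-type median of −1.49 and a ptc1 median of −1.23. In ptc1, 142 of these 192 genes fell (74.0%) and 1 of the 14 PAU genes did. For each gene the ptc1 mean log2 ratio was taken as a percentage of its wild-type mean log2 ratio. The median of this percentage was 39.9% for the PAU genes and 81.7% for the others.

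The ptc1 values of the 14 PAU genes thus lay mostly above those of genes with like wild-type values. A ptc1 mean above the PAU median was seen in 8 of the 192 other genes (4.17%), and by construction in 7 of the 14 PAU genes (50%). A strain difference was called in 5 of the 14 and in 7 of the 192 (3.65%). Both ptc1 arrays lay above both wild-type arrays in 14 of 14 and in 82 of 192 (42.7%). The median gap between ptc1 arrays with its sign, array 2 minus array 1, was 0.562 for the PAU genes and 0.0115 for the others.

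**Figure D3:**
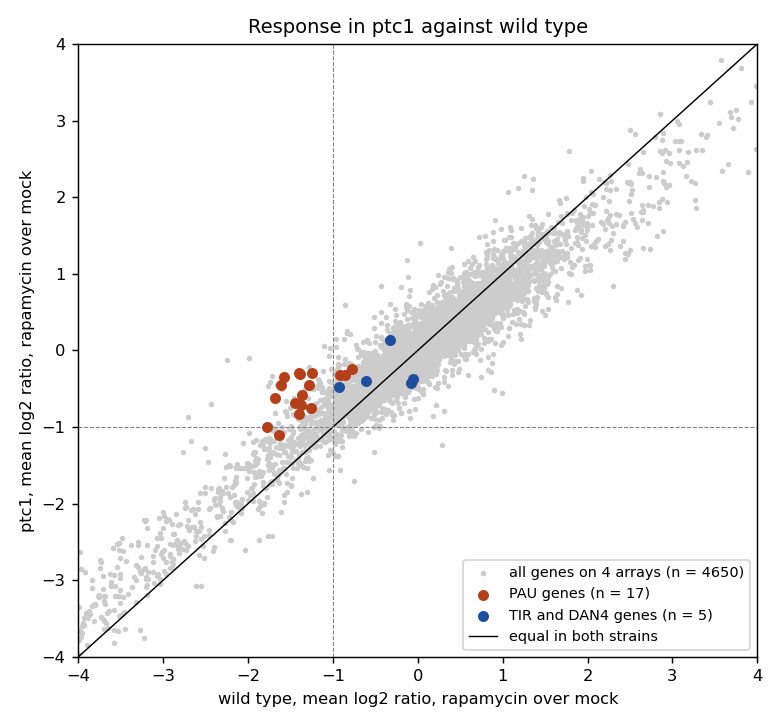
Each point is a gene measured on all 4 arrays, with the mean log2 ratio, rapamycin over mock, in the wild type on the x axis and in ptc1 on the y axis. The solid line marks equal ratios, dashed lines mark 2-fold falls, and 51 genes beyond 4 on either axis are not drawn. The 17 PAU genes (orange) form a group above the line, with wild-type means of −0.775 or lower, and the 5 TIR and DAN4 genes (blue) lie near the bulk of genes.

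The TIR and DAN4 genes had strain differences of both signs, with a median of 0.21. TIR2 (0.46 ± 0.51), TIR3 (0.46 ± 0.78) and DAN4 (0.21 ± 0.60) were higher in ptc1, and TIR1 (−0.33 ± 0.41) and TIR4 (−0.35 ± 0.56) lower. Each of these differences was within its SD, and none passed the limit. Both ptc1 arrays of TIR1 lay below both wild-type arrays, by as little as 0.015, a separation in this direction that 16.5% of all genes showed.

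Related genes were taken as 4 lists written from general knowledge of yeast. The lists were regulators of the oxygen and haem response, other hypoxic genes, aerobic partners of hypoxic genes, and other wall mannoproteins. Among 10 regulators 6 were measured on both wild-type arrays and 8 on both ptc1 arrays, and none rose or fell in either strain. Over all genes 13.8% rose and 15.0% fell in the wild type, against 10.6% and 12.4% in ptc1. The repressor gene MOT3 (YMR070W) had wild-type values of −0.81 and −0.91 and ptc1 values of −0.13 and −0.10, a difference of 0.75 ± 0.07 that did not reach 1. ECM22 (YLR228C), whose product is a sterol-sensing activator related to Upc2, had wild-type values of −0.93 and −0.99 and ptc1 values of −0.02 and 0.10. Its difference of 1.00 ± 0.10 was the one called among the 6 regulators measured on all 4 arrays, against 0.989% of all genes called higher.

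MOT3 and ECM22 were the 2 of the 6 regulators measured on all 4 arrays in which both ptc1 arrays lay above both wild-type arrays. Over all genes 18.2% showed such a separation. The repressor gene ROX1 (YPR065W), with a wild-type mean of −0.45 ± 0.15 and a ptc1 mean of −0.10 ± 0.37, had overlapping arrays, as did HAP1 (YLR256W), the gene of the haem-dependent activator, at 0.71 ± 0.40 and 0.59 ± 0.25. UPC2 (YDR213W) was measured on wild-type array 2 alone, at 0.04. The part of any of these regulators in the values of the PAU genes was not tested.

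Other genes known to be induced when oxygen is low gave mixed values. Of 12 measured on both wild-type arrays 1 rose and 1 fell, with a median of 0.198, and of 14 in ptc1 2 rose and 1 fell, with a median of 0.164. Over all genes 13.8% rose and 15.0% fell in wild-type cells, against 10.6% and 12.4% in ptc1 cells. COX5B (YIL111W), the hypoxic form of a cytochrome c oxidase subunit, rose in both strains, by 2.96 ± 0.19 and 2.16 ± 0.77. CYC7 (YEL039C), the hypoxic cytochrome c, rose in ptc1, where its arrays were at 0.76 and 2.20, and stood at 0.72 ± 0.17 in the wild type.

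ANB1 (YJR047C), the hypoxic form of translation factor eIF5A, fell in both strains, to −1.12 ± 0.22 and −1.02 ± 0.04. Its aerobic partner HYP2 (YEL034W) fell as well, to −1.31 ± 0.47 and −1.13 ± 0.02, and as near-identical genes they may share signal. HYP2 was the 1 of 2 measured aerobic partners that fell in the wild type and the 1 of 4 in ptc1, where the median of this list was −0.038. HEM13 (YDR044W), a haem synthesis gene under Rox1, was at −0.24 ± 0.11 and −0.36 ± 0.42. No strain difference was called in the hypoxic or the aerobic list, against 0.989% of all genes called higher and 0.925% lower. The median differences were −0.10 over 12 hypoxic genes and 0.08 over only 2 aerobic partners.

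Several wall mannoprotein genes of aerobic cells were higher after rapamycin. Of 7 measured, 4 rose in the wild type (against 13.8% of all genes) and 2 in ptc1 (against 10.6%), with medians of 1.23 and 0.727 and none falling. SED1 (YDR077W), a major wall protein of stationary cells, rose by 2.02 ± 0.37 in the wild type and 1.11 ± 0.35 in ptc1. SPI1 (YER150W), a related wall protein, rose by 1.99 ± 0.17 and 1.66 ± 0.09. TIP1 (YBR067C), which belongs to the same protein family as the Tir proteins, rose in the wild type by 1.23 ± 0.25 and stood at 0.73 ± 0.31 in ptc1.

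CCW14 (YLR390W-A), a structural wall protein, rose in the wild type by 1.48 ± 0.28 and stood at 0.82 ± 0.30 in ptc1. All 7 differences between strains were negative, with a median of −0.50, while 49.5% of all genes had a positive difference. None passed the limit, against 0.925% of all genes called lower in ptc1. The ptc1 means thus lay nearer to 0 than the wild-type means, as those of the PAU genes did, save for CWP1 (YKL096W), at −0.47 ± 0.08 and −0.55 ± 0.07. Over all genes measured the means also spread less in ptc1, with an SD over genes of 1.05 against 1.24 in the wild type. These SDs cover 5221 and 4796 genes, which are not the same set.

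**Figure D4:**
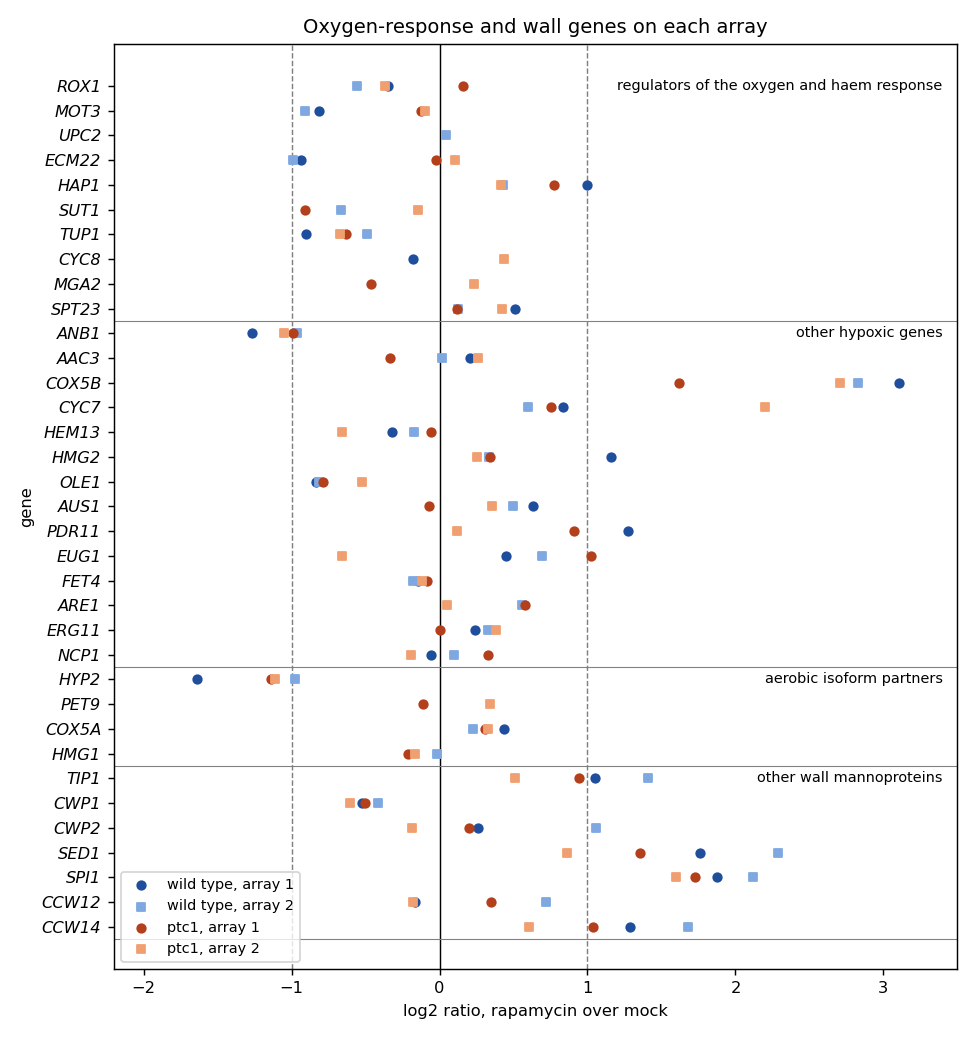
Each point is the log2 ratio, rapamycin over mock, of a gene on 1 array, for the genes of the 4 lists with a value, and dashed lines mark 2-fold. MOT3 and ECM22 have both wild-type arrays (blue) near −0.9 and both ptc1 arrays (orange) near 0, COX5B lies above 1 on all arrays, and SED1 and SPI1 are the highest of the wall genes.

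Genes beside the TIR and DAN genes had mostly positive ratios. AUS1 (YOR011W), a sterol importer gene next to TIR2, had a wild-type mean of 0.56 ± 0.09 and a ptc1 mean of 0.14 ± 0.30. PDR11 (YIL013C), the related importer gene 2 places from TIR3, had 1.27 on wild-type array 1 alone, and 0.51 ± 0.56 in ptc1. EST3 (YIL009C-A), a telomerase subunit gene 2 places from TIR3 on the other side, rose in both strains (1.80 ± 0.01 and 1.34 ± 0.13), and so did BAT2 (YJR148W), a branched-chain aminotransferase gene 2 places from DAN1 (3.77 ± 0.03 and 3.02 ± 0.22).

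The allantoate permease gene DAL5 (YJR152W), 2 places from DAN4, had 3.80 on wild-type array 1 alone and 3.99 ± 0.36 in ptc1. YJR149W, beside DAN1, stood at 0.90 ± 0.23 in the wild type and rose in ptc1 (1.33 ± 0.51). The other measured neighbours, NTF2, YER010C and PRE1 at TIR1, SLG1 at TIR4 and YIL012W and DOT5 at TIR3, did not pass the limit in a strain where they had both arrays. The wild-type means of DAN4 and TIR3 were negative, while the wild-type values of their measured neighbours were positive.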

How the data were processed

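The deposited values are 1 log ratio for every reading frame on each array, treated as log2. Per the labels' protocols, the authors discarded small spots (below 120 µm) and dim ones (below 150 units in Cy3 and Cy5), then normalised intensities through the ratio of medians. The log base, the scanner software and any background correction are not given in the sources used. The direction, rapamycin over mock, is likely from the study's design. All 4 arrays correlated positively and no sign was turned. Rows were named through the R64 reference table, 5662 by locus tag and 52 by synonym, and rows of the same gene were averaged, leaving 6176 genes. Means, SDs and counts were computed with Python 3.11.15 and pandas 2.3.3, and the calls were tested on simulated data. The simulated wild-type falls and strain differences were larger than those of the PAU genes, so calls near the limit were not tested. The number of arrays limits the precision, and signal levels were not used here.

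The members, lists and rules were chosen with earlier results of these data known. All members with a value are named, with list genes past the rule and ROX1, MOT3, UPC2 and HAP1, neighbours of TIR and DAN genes within 2 places, PTC1, and others where a count of 5 or fewer called for it. HEM13 and CWP1 were named after their values were seen. Alternatives changed the centring, the spread of arrays, the threshold, the sign condition, the arrays used and the genes counted. Averaging identical copies was planned and not run.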

Additional observations from a re-analysis of the deposited data

How the results depend on the processing

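The wild-type fall of 14 PAU genes and the rise of PAU19 held under centring, scaling to equal spread and no condition on signs, and centring moved wild-type array 1 by 0.131. Over all genes 16.1% fell in the wild type under centring and 15.3% under scaling. At 1.5-fold 21 members changed in the wild type, 8 in ptc1 and 12 differed between strains, and the 4 lists had 15 and 11 genes changed. At 3-fold 4 members fell in the wild type, 0 changed in ptc1 and 0 differed between strains. The list genes past 3-fold all rose, 3 in the wild type and 2 in ptc1. The share of all genes that rose was not computed at these limits. The share of all genes higher in ptc1 moved as well, from 0.989% to 4.99% at 1.5-fold and 0.0860% at 3-fold. The share of all genes that fell moved from 15.0% to 23.7% at 1.5-fold and 9.07% at 3-fold in the wild type. In ptc1 it moved from 12.4% to 20.3% and 7.07%. Both centring and scaling gave 2 changed members in ptc1 in place of 1, adding PAU4, and under scaling PAU12 (0.976) lost its strain difference. Over all genes 12.9% then fell in ptc1 under centring and 13.5% under scaling. The shares called higher in ptc1 were 1.01% and 0.817%. With each array left out in turn, changed members ranged from 15 to 16 in the wild type and from 1 to 6 in ptc1, and those differing between strains from 1 to 9 in place of 5. The share of all genes that fell ranged from 14.9% to 16.3% in the wild type and from 12.4% to 13.8% in ptc1. The share called higher in ptc1 ranged from 0.896% to 1.92%. The median over members then ranged from −0.763 to −0.291 in ptc1, from −1.30 to −1.15 in the wild type, and from 0.526 to 0.84 for the strain difference. The cause of these shifts was not tested. PAU strain differences were positive under each setting except those of PAU10 (−0.404), which has no value on ptc1 array 2 and enters when that array is left out or 1 array of a strain is enough, and PAU7 (−0.836), which enters in the latter case alone. For PAU genes measured on all 4 arrays the sign could not change when an array was left out, since both ptc1 arrays lay above both wild-type arrays. The labels give no replicate numbers that join the strains, so the calls pair no arrays. Arrays were matched by dye for the median PAU difference alone, in 2 ways, since titles and dye entries name the dyes differently for ptc1. Averaging of identical copies was not run, since no sequences were used here.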

Other observations

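Genes up to 2 places from a family member were looked at as a group, and those named here were chosen after their values were seen. Of 44 neighbours measured on both wild-type arrays 8 fell (18.2%) and 10 rose (22.7%), with a median of 0.177, against 15.0% and 13.8% of all genes. Of 40 measured on all 4 arrays 4 had a called strain difference (10.0%), all higher in ptc1, against 0.989% of all genes. Of the 393 genes outside the family within 20 genes of a chromosome end 2.80% were called higher. That set includes the neighbours that lie near an end, so it is not separate from them.

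HSP33 (YOR391C), 2 places from PAU21, fell to −1.04 ± 0.20 in wild-type cells but was at 0.03 ± 0.09 in ptc1 cells, a difference of 1.06 ± 0.22. HSP32 (YPL280W), 2 places from PAU22, went from −1.10 ± 0.29 to 0.06 ± 0.24, a difference of 1.16 ± 0.37. Both belong to the family of Hsp31-like proteins and are close copies, so their values may share signal. IMA4 (YJL221C), an isomaltase gene 2 places from PAU1 with close copies elsewhere, went from −1.72 ± 0.17 to −0.33 ± 0.25, a difference of 1.39 ± 0.30. YIR042C, beside PAU15, rose in both strains, by 1.06 ± 0.22 and 2.07 ± 0.82, so its difference of 1.01 ± 0.85 is of another kind.

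In contrast, GAT1 (YFL021W), the gene of a nitrogen-response activator beside PAU5, rose alike in both strains, by 1.34 ± 0.33 and 1.41 ± 0.02, and TCA17 (YEL048C), a vesicle-tethering gene beside PAU2, fell in both, to −1.30 ± 0.01 and −1.07 ± 0.46.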
